A study of Mus musculus with 7 samples.

Results

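The genes described here are Atf4 and 9 genes of the integrated stress response that it heads, namely Ddit3, Atf5, Asns, Chac1, Trib3, Sesn2, Eif4ebp1, Ppp1r15a and Vldlr. They were taken by symbol from a table of 35013 gene symbols, and all 10 were present and passed the filter on low counts in each comparison. The table holds sorted pancreatic β-cells of 7 mice, with 1 library per mouse. Mouse 1 and mouse 2 of KO_db/db had 2 floxed copies of Aldh1a3 (Aldh1a3 fl/fl) with the RIP-Cre Herr transgene, the reporter tdT fl/+ and Lepr db/db, so that Cre under the insulin promoter deleted Aldh1a3 in β-cells of obese diabetic animals. The 2 db/db controls had 1 floxed copy (Aldh1a3 fl/+) on the same RIP-Cre Herr, tdT fl/+ and Lepr db/db background, and the 3 lean db/+ controls differed from them only in carrying Lepr db/+. Cre, the tdTomato reporter and at least 1 floxed Aldh1a3 allele were therefore present in every group. Homozygous Lepr db mice have no working leptin receptor and become obese and diabetic. All mice were fasted before their islets were isolated, and the age range and sexes given for the study are not tied to single libraries. The libraries addressed how β-cells lacking Aldh1a3, a marker of dedifferentiated β-cells, differ from obese and lean controls.

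The integrated stress response begins when a kinase senses unfolded protein, missing amino acids, missing haem or double-stranded RNA and phosphorylates the translation factor eIF2. General protein synthesis then falls while the Atf4 mRNA is translated more, so the protein can rise without its mRNA. ATF4 binds DNA with C/EBP-family partners and turns on genes of amino acid supply, and the response is closed by a phosphatase subunit, encoded by Ppp1r15a, that removes the phosphate from eIF2. β-cells make large amounts of secreted protein and are known to depend on this pathway. The mRNA levels reported here do not measure eIF2 phosphorylation or ATF4 protein.

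Sequence around the start of each gene shows which members carry the DNA letters that ATF4 and its partners are known to bind. Windows of 250 bases before to 50 bases after each RefSeq start (GRCm38.p6) were held for 9 of the 10 genes. The C/EBP-ATF response element was searched as TGATGNAA on both strands, and 4 of these 9 genes (44.44%) had a match, Asns, Chac1, Trib3 and Vldlr, where 3.97% of 32851 windows and 4.51% of 27025 genes had one. In the lines that follow, each shown because it holds a match, capitals mark the matched letters and the sequence runs 5′ to 3′ on the strand of the gene.
Asns, chr6:7693214-7693243, minus strand, match from -23 to -16: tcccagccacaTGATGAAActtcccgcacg
Chac1, chr2:119351023-119351082, plus strand, match from -193 to -186: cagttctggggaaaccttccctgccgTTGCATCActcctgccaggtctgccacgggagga
Trib3, chr2:152344028-152344057, minus strand, match from 15 to 22: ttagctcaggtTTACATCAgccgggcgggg
Vldlr, chr19:27216809-27216838, plus strand, match from -200 to -193: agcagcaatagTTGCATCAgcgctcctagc
Positions count from the RefSeq start, whose first base is 1. The match of Vldlr lies before the second of its starts, and those of Asns and Vldlr fall in exons of other GENCODE transcripts of the same genes. In Ppp1r15a the window held no such match but held the palindrome TGACGTCA, the cAMP response element, which 1.79% of all windows hold and which no other member's window had. It is shown because Ppp1r15a moved against most of the other members in the results that follow.
Ppp1r15a, chr7:45526269-45526328, minus strand, match from -12 to -5: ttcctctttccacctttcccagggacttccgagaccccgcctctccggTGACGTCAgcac
A match describes letters in a window, and binding was not measured.

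Counts per gene were estimated by the authors with kallisto, and they summed to between 27496645 and 35852785 per library. Levels are given as CPM, each library's counts divided by its size as scaled by the TMM method, and 3 counts, the detection floor, equal 0.0721 to 0.123 CPM. The deleted gene, Aldh1a3, had 4.93 and 7.90 CPM in KO_db/db, 99.3 and 195 CPM in db/db, and 0.0727 to 0.584 CPM in db/+. The libraries differed in composition. The 10 β-cell markers read here took 24.8% to 27.0% of the counts in KO_db/db and db/db and 34.3% to 38.7% in db/+, and mitochondrial genes took 7.22% to 11.3% in KO_db/db and db/db and 12.1% to 21.3% in db/+. A list of 42 acinar markers took 17.6% in KO_db/db mouse 1 and 1.99% in mouse 2, with at most 1 marker at 0, against at most 0.0572% in any other library. The 6 Reg genes moved with it, at 0.269% and 0.0389% against at most 0.00108%. Alpha, delta, PP and ductal markers each took at most 0.385% of a library. Endothelial, stellate, macrophage and lymphocyte markers each took at most 0.00886%, and most counts of the lymphocyte list were those of Cd79a. Each group is compared with libraries that another comparison also uses, and in sorted bulk samples fewer cells of a type and less RNA per cell cannot be told apart.

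In db/db compared to db/+, 5 members fell, Atf5, Vldlr, Ddit3, Atf4 and Asns, and Ppp1r15a rose. The other 4 members did not pass the test. A gene was called at an adjusted p under 0.05 (quasi-likelihood test of edgeR, adjusted by Benjamini and Hochberg over all genes tested), and 18% of the 13406 genes were called lower and 19.9% higher. The median log2 fold change of the 10 members was -0.61, where that of all genes was 0.01. It moved to -0.34 without db/+ mouse 2. The CPM of the groups did not overlap for 7 members, in a comparison where 63.1% of all genes did not overlap.

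**Figure D1:**
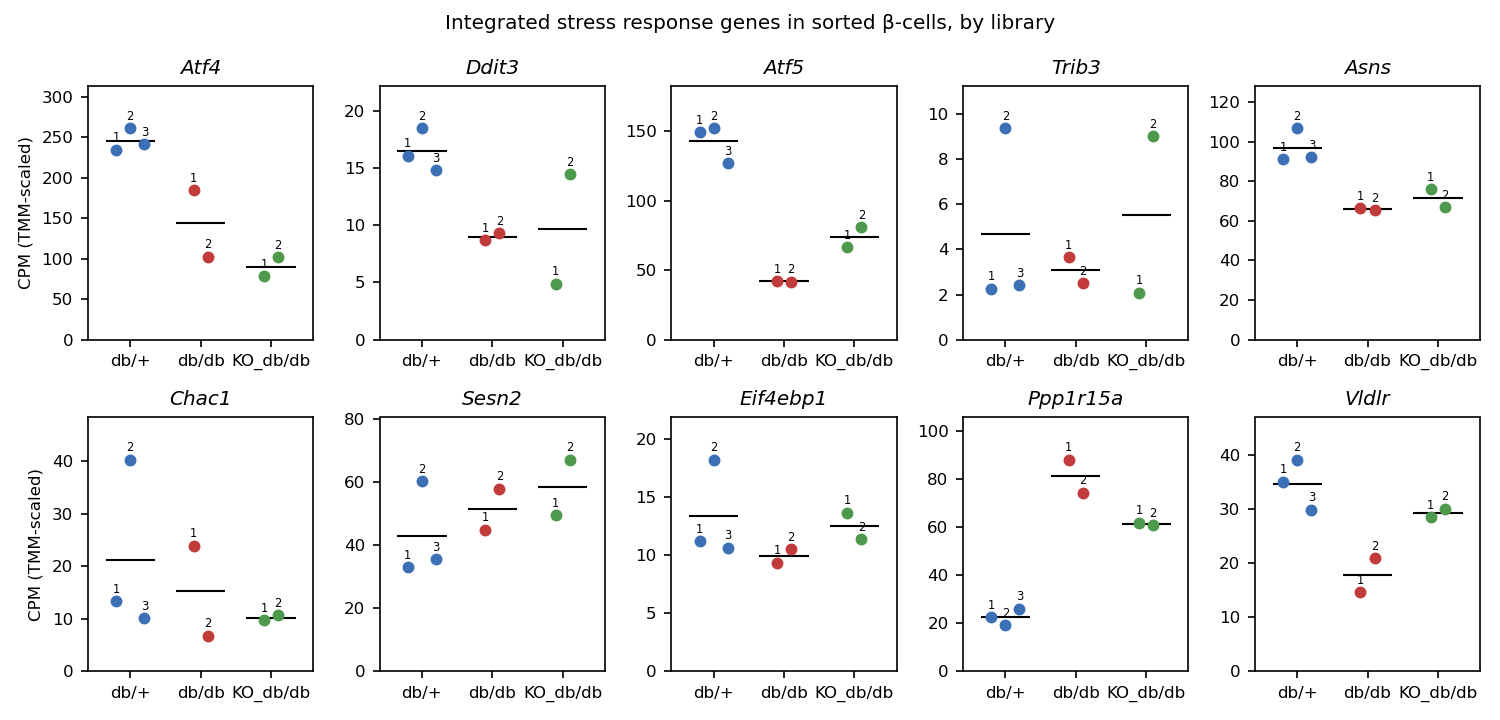
Level of each of the 10 genes in every library, in TMM-scaled CPM on a linear axis from 0, with points numbered by mouse and a line at the group mean. Atf5 separated the 3 groups, from 41.7 and 42.1 CPM in db/db to at least 127 in db/+, while the db/+ library of mouse 2 stood above the other db/+ libraries for Trib3 and Chac1.

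Atf4, the transcription factor that heads the response, lies on chromosome 15 of GRCm38 (80255184 to 80257541, plus strand). Its level was 234, 261 and 241 CPM in the db/+ libraries, 184 and 103 CPM in db/db, and 78.5 and 102 CPM in KO_db/db. Every db/+ library was above every db/db library, and db/db mouse 2 was level with KO_db/db mouse 2. The log2 fold change was -0.80 in db/db against db/+ (SE 0.24, adjusted p = 0.0351 by edgeR). For KO_db/db against db/+ it was -1.44 (SE 0.14, adjusted p = 0.00101 by edgeR). The groups KO_db/db and db/db differed by -0.66 (SE 0.31, adjusted p = 0.291 by edgeR), a difference that missed the threshold, and the db/db libraries differed from each other by 1.80-fold. The fall in db/db lost its call without db/+ mouse 1, mouse 2 or mouse 3 (adjusted p = 0.0778, 0.0955 and 0.0720 by edgeR, and 0.00268 to 0.0955 over all alternatives), with log2 fold changes of -0.84, -0.76 and -0.81. It measured -0.45 without db/db mouse 2 and -1.28 without db/db mouse 1.

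Atf5 encodes a related factor whose mRNA, like that of Atf4, is translated when eIF2 is phosphorylated, and it is known to act in β-cell survival. The gene lies on chromosome 7 (44812256 to 44816658, minus strand). It had 149, 152 and 127 CPM in db/+, 42.1 and 41.7 CPM in db/db, and 66.4 and 81.0 CPM in KO_db/db. No group overlapped another, with db/db lowest and KO_db/db in between. Its log2 fold change of -1.80 in db/db against db/+ (SE 0.12, adjusted p = 0.000447 by edgeR) was the largest fall of any member. KO_db/db was lower than db/+ by less, with a log2 fold change of -0.95 (SE 0.13, adjusted p = 0.00275 by edgeR). Against db/db, KO_db/db differed by 0.83 on the log2 scale (SE 0.15, adjusted p = 0.0905 by edgeR), which missed the threshold. DESeq2, the fit with no filter and the fit of all 7 libraries together called it higher (adjusted p = 0.000350, 0.00475 and 0.0229, the second and last by edgeR, within 0.000350 to 0.227 over all alternatives). Atf5 shares exons with Nup62 and Il4i1 on the opposite strand, and the strand setting of the libraries is not given in the sources used here, so reads in the shared exons cannot be told apart.

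Ddit3 encodes CHOP, a factor that ATF4 induces and that is known to promote cell death when stress persists (chromosome 10, 127290774 to 127296288, plus strand). Its level was 16.1, 18.5 and 14.8 CPM in db/+, 8.68 and 9.30 CPM in db/db, and 4.89 and 14.5 CPM in KO_db/db. The db/db libraries were close to each other and below all db/+ libraries, whereas the KO_db/db libraries lay 2.97-fold apart on either side of db/db. The log2 fold change was -0.90 in db/db against db/+ (SE 0.16, adjusted p = 0.00599 by edgeR), a call that the fit of all 7 libraries together did not make (adjusted p = 0.105 by edgeR, with alternatives from 2.12e-05 to 0.105). In KO_db/db it was -0.74 against db/+ (SE 0.40, adjusted p = 0.185 by edgeR) and 0.13 against db/db (SE 0.49, adjusted p = 0.899 by edgeR). Without KO_db/db mouse 2 these became -1.75 (adjusted p = 0.00442 by edgeR, with alternatives from 0.00442 to 0.466) and -0.85. Acinar markers took 17.6% of the counts of the low KO_db/db library and 1.99% of the high one, and their part in the gap was not tested. Ddit3 overlaps exons of Mars and Gm4189 on the opposite strand, which leaves its counts uncertain in the same way. The methionyl-tRNA synthetase gene, Mars1 in the table, fell by 2.00 on the log2 scale in db/db against db/+.

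**Figure D2:**
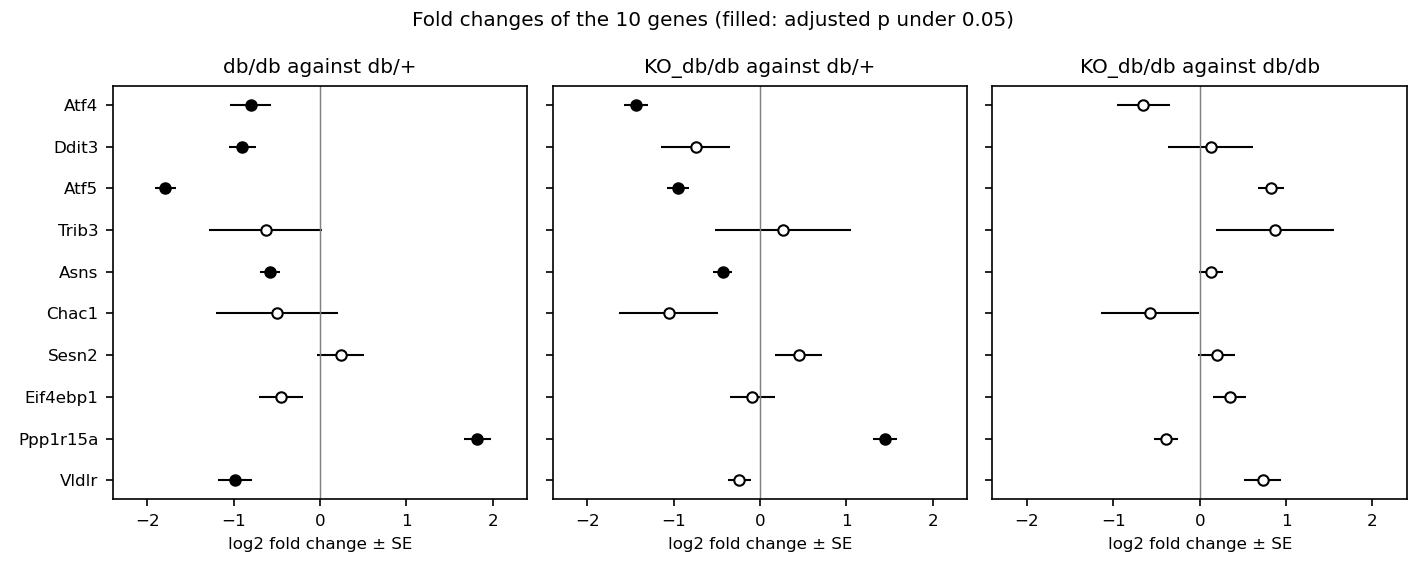
Log2 fold change of the 10 genes in the 3 comparisons, with bars for the standard error and filled points for an adjusted p under 0.05 by edgeR. Atf5 at -1.80 and Ppp1r15a at 1.82 lay farthest from 0 in db/db against db/+, and no point of KO_db/db against db/db is filled.

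Asns encodes asparagine synthetase, a classic ATF4 target (chromosome 6, 7675169 to 7693254, minus strand), and its window with the TGATGAAA match is printed among the sequences. It had 91.2, 107 and 92.0 CPM in db/+, 66.3 and 65.2 CPM in db/db, and 75.8 and 66.7 CPM in KO_db/db. Both obese groups lay below all db/+ libraries, and KO_db/db mouse 2 was level with db/db. Asns fell by 0.58 on the log2 scale in db/db against db/+ (SE 0.11, adjusted p = 0.00835 by edgeR). It fell by 0.43 in KO_db/db against db/+ (SE 0.11, adjusted p = 0.0242 by edgeR). The second call was lost without KO_db/db mouse 2, without db/+ mouse 2 and with the mouse number as a block (adjusted p = 0.106, 0.0672 and 0.0738 by edgeR, within 0.00457 to 0.106 over all alternatives). KO_db/db and db/db differed by 0.13 on the log2 scale (SE 0.13, adjusted p = 0.606 by edgeR).

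Vldlr encodes the very low density lipoprotein receptor, which takes up lipid-rich particles and is induced by ATF4 under stress (chromosome 19, 27216484 to 27254231, plus strand). Its level was 35.1, 39.2 and 29.9 CPM in db/+, 14.6 and 20.9 CPM in db/db, and 28.5 and 30.1 CPM in KO_db/db. The db/db libraries were lowest, and KO_db/db mouse 2 reached the lowest db/+ library while mouse 1 lay below it. The log2 fold change in db/db against db/+ was -0.99 (SE 0.20, adjusted p = 0.00919 by edgeR). KO_db/db differed from db/+ by -0.24 (SE 0.13, adjusted p = 0.193 by edgeR). Against db/db it differed by 0.73 (SE 0.21, adjusted p = 0.164 by edgeR). DESeq2 and the fit with no filter called this last difference (adjusted p = 0.0452 and 0.0324, the second by edgeR, within 0.0324 to 0.459 over all alternatives).

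Chac1 degrades glutathione and Trib3 encodes a pseudokinase that restrains AKT and ATF4 itself. Chac1 (chromosome 2, 119351229 to 119354381, plus strand) had 13.3, 40.3 and 10.1 CPM in db/+, 23.9 and 6.76 CPM in db/db, and 9.65 and 10.6 CPM in KO_db/db. Its libraries spread 3.98-fold within db/+ and 3.54-fold within db/db, and the groups overlapped in all 3 comparisons. Trib3 (chromosome 2, 152337422 to 152344032, minus strand) had 2.25, 9.38 and 2.41 CPM in db/+, 3.67 and 2.50 CPM in db/db, and 2.08 and 9.02 CPM in KO_db/db. Mouse 2 stood far above its group mates both in db/+ and in KO_db/db (4.16-fold and 4.34-fold from lowest to highest). In db/db against db/+ the log2 fold change was -0.50 for Chac1 (SE 0.71, adjusted p = 0.613 by edgeR) and -0.63 for Trib3 (SE 0.65, adjusted p = 0.483 by edgeR). Both signs turned without db/+ mouse 2, to 0.36 and 0.37, and that of Chac1 also without db/db mouse 2, to 0.14. Against db/+, KO_db/db differed by -1.06 for Chac1 (SE 0.58, adjusted p = 0.189 by edgeR) and by 0.27 for Trib3 (SE 0.78, adjusted p = 0.810 by edgeR). The latter turned to -1.17 without KO_db/db mouse 2, to -0.06 without db/+ mouse 1 and to -0.05 without db/+ mouse 3. Against db/db the log2 fold change in KO_db/db was -0.58 for Chac1 (SE 0.57, adjusted p = 0.584 by edgeR), or 0.60 without db/db mouse 1. That of Trib3 was 0.87 (SE 0.68, adjusted p = 0.496 by edgeR), or -0.54 without KO_db/db mouse 2.

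Sesn2 and Eif4ebp1 link the response to mTORC1, the kinase complex that promotes protein synthesis. Sesn2 encodes a leucine-sensing inhibitor of the pathway (chromosome 4, 132492032 to 132510501, minus strand) and had 32.9, 60.1 and 35.4 CPM in db/+, 44.8 and 57.7 CPM in db/db, and 49.5 and 67.0 CPM in KO_db/db. The groups overlapped in all 3 comparisons, and db/+ mouse 2 stood above both db/db libraries. Log2 fold changes were 0.24 in db/db and 0.45 in KO_db/db against db/+ (SE 0.27 in each, adjusted p = 0.527 and 0.231 by edgeR) and 0.20 between KO_db/db and db/db (SE 0.21, adjusted p = 0.618 by edgeR). Without db/+ mouse 2 that of KO_db/db against db/+ was 0.78 and was called (adjusted p = 0.0265 by edgeR, with alternatives from 0.0265 to 0.670). Eif4ebp1 encodes 4E-BP1, which holds the cap-binding factor eIF4E until mTORC1 phosphorylates it (chromosome 8, 27260329 to 27276674, plus strand). It had 11.2, 18.2 and 10.6 CPM in db/+, 9.33 and 10.5 CPM in db/db, and 13.6 and 11.4 CPM in KO_db/db. The db/db libraries lay under all others, although db/db mouse 2 was close to the lowest db/+ library. Its log2 fold change was -0.45 in db/db against db/+ (SE 0.26, adjusted p = 0.213 by edgeR), 0.35 in KO_db/db against db/db (SE 0.19, adjusted p = 0.360 by edgeR) and -0.09 in KO_db/db against db/+ (SE 0.26, adjusted p = 0.809 by edgeR).

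Ppp1r15a encodes GADD34, the inducible subunit that brings a phosphatase to eIF2 and so ends the response (chromosome 7, 45522916 to 45526268, minus strand). Its level was 22.6, 19.1 and 26.1 CPM in db/+, 88.1 and 74.5 CPM in db/db, and 61.9 and 60.8 CPM in KO_db/db. No group overlapped another, and the order was the reverse of that of Atf5, with db/db highest. It rose by 1.82 on the log2 scale, or 3.53-fold, in db/db against db/+ (SE 0.16, adjusted p = 0.000758 by edgeR). It rose by 1.45, or 2.73-fold, in KO_db/db against db/+ (SE 0.14, adjusted p = 0.00100 by edgeR). The log2 fold change between KO_db/db and db/db was -0.39 (SE 0.14, adjusted p = 0.213 by edgeR). Both rises kept their call in every alternative fit. Its constitutive relative Ppp1r15b went the other way, from 41.0 to 55.9 CPM in db/+ to 38.3 and 33.2 CPM in db/db and 35.3 and 33.0 CPM in KO_db/db. Ppp1r15b fell by 0.47 in db/db (SE 0.15, adjusted p = 0.0490 by edgeR) and by 0.51 in KO_db/db (SE 0.14, adjusted p = 0.0313 by edgeR). Exons of Ppp1r15a overlap those of Tulp2 on the opposite strand.

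Immediate early genes, which are switched on within minutes by many stimuli and by the dissociation of tissue, rose beside Ppp1r15a in db/db against db/+. They were read from a list of 15 genes that also holds the heat shock genes Hspa1a and Hspa1b. The list summed to 457 to 544 CPM in db/+, 4034 and 1755 CPM in db/db, and 544 and 1258 CPM in KO_db/db. KO_db/db mouse 1 was thus level with the highest db/+ library. In db/db against db/+ 12 of 15 rose and none fell, where 19.9% of all genes rose and 18% fell. The median log2 fold change was 2.13 against 0.01 over all genes. Egr1 rose by 3.90 (SE 0.32), Jun by 3.68 (SE 0.31), Hspa1a by 3.67 (SE 0.49) and Fosb by 3.51 (SE 0.33), with adjusted p of 0.000673 to 0.00230 by edgeR. Of the 15 genes, 6 rose in KO_db/db against db/+, where 20.5% of all genes rose. The median was 1.04, or 1.23 without KO_db/db mouse 1. Between KO_db/db and db/db the list had a median of -1.43, beside -0.02 over all genes and -0.39 for Ppp1r15a. None of its genes was called there by edgeR. The 2 KO_db/db libraries had nearly equal Ppp1r15a. Of the list, Egr1 (117 and 230 CPM), Jun (32.9 and 104 CPM), Hspa1a (46.9 and 145 CPM) and Fosb (14.6 and 72.5 CPM) were apart between them. Junb (40.03 and 42.96 CPM) and Zfp36 (17.2 and 18.7 CPM), picked after their values were seen, were close. The part of the listed genes in the rise of Ppp1r15a was not tested.

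**Figure D3:**
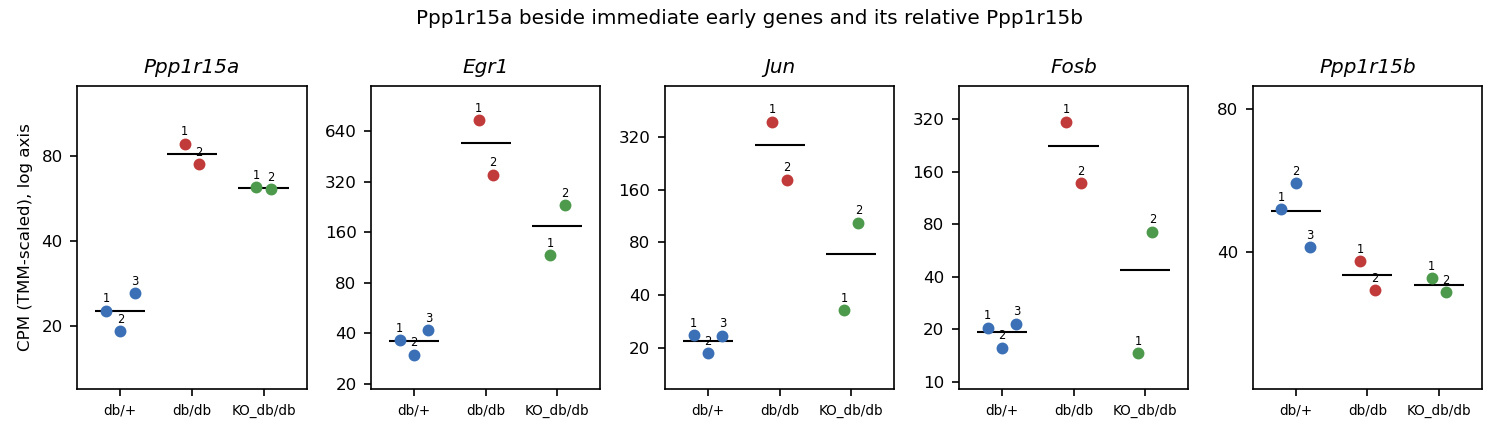
TMM-scaled CPM on log axes for Ppp1r15a, the immediate early genes Egr1, Jun and Fosb, and Ppp1r15b, with points numbered by mouse and a line at the group mean. Ppp1r15a was at 61.9 and 60.8 CPM in KO_db/db and at most 26.1 CPM in db/+, and Egr1 was also above db/+ in both KO_db/db libraries, while Fosb in KO_db/db lay at 14.6 and 72.5 CPM.

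Between KO_db/db and db/db no member was called by edgeR in either direction, in a comparison where 43 of 13486 genes (0.319%) were called and 2814 had an unadjusted p under 0.05. Of the members, 3 had an unadjusted p under 0.05 in this fit, namely Atf5, Vldlr and Ppp1r15a. Of the 10 members, 7 had a positive fold change, beside 47.9% of all genes. The groups did not overlap for 6 members and for 57.5% of all genes. Their median log2 fold change was 0.16, that of all genes was -0.02, and without KO_db/db mouse 2 the members' median was -0.20. Other fits made more calls over the whole table. DESeq2 called 2 members higher, Atf5 and Vldlr, where it called 5.75% of all genes higher. The fit with no filter on low counts called the same 2 members, where it called 4.1% of genes higher, and the fit of all 7 libraries called Atf5 where it called 3.66%.

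In KO_db/db against db/+, Ppp1r15a rose, Atf4, Atf5 and Asns fell, and 6 members did not pass the test. Of 13228 genes, 20.5% were called higher and 17.9% lower. The groups did not overlap for 5 members, Atf4, Ddit3, Atf5, Asns and Ppp1r15a, where 64% of all genes did not overlap. The median log2 fold change was -0.34 over the members and -0.00 over all genes, and it was -0.73 without KO_db/db mouse 2 and -0.22 without mouse 1, the library with 17.6% acinar counts. The same 3 members fell and Ppp1r15a rose without mouse 1, with log2 fold changes of -1.27 for Atf4, -0.82 for Atf5, -0.54 for Asns and 1.42 for Ppp1r15a (adjusted p = 0.00640, 0.0190, 0.0444 and 0.00699 by edgeR). Over all alternatives the adjusted p ran from 6.53e-24 to 0.0106 for Atf4, from 1.71e-10 to 0.0190 for Atf5, from 0.00457 to 0.106 for Asns and from 1.29e-16 to 0.00964 for Ppp1r15a. This comparison and that of db/db against db/+ share the db/+ libraries.

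One of the db/+ libraries stood above its group mates for several members. In mouse 2, Trib3 was 3.90-fold, Chac1 3.03-fold, Sesn2 1.70-fold and Eif4ebp1 1.63-fold above the higher of the other db/+ libraries. This pattern was singled out after the values were seen. Of all 13406 genes, 3.24% exceeded both other db/+ libraries by over 1.5 times in that library. It was also the highest of all 7 libraries for 8 of the 10 members, all but Sesn2 and Ppp1r15a, as it was for 15.9% of all genes, and the lowest of the 7 for Ppp1r15a. Mitochondrial genes took 19.9% of its counts, acinar markers 0.0330% and immediate early genes 457 CPM, and their part in the pattern was not tested.

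**Figure D4:**
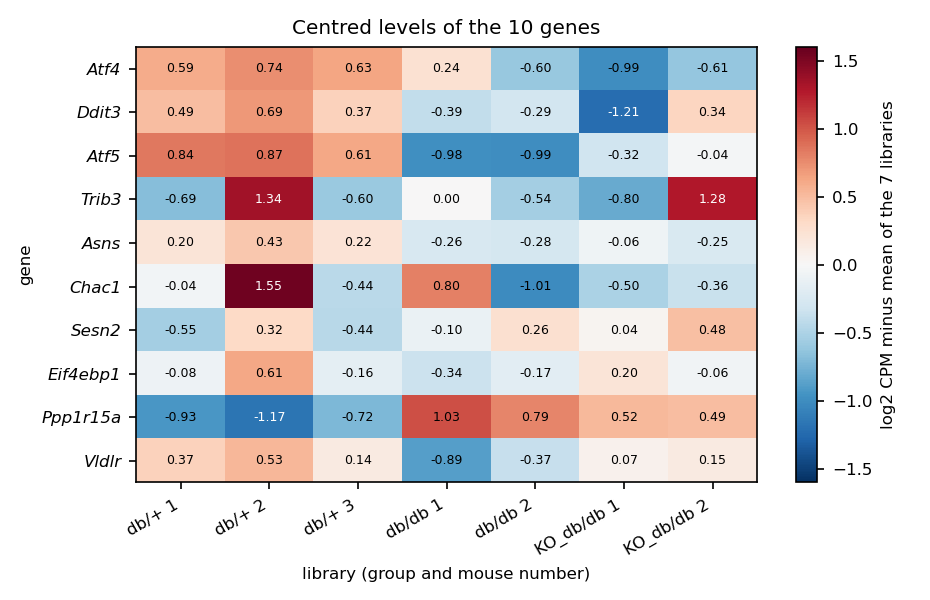
Log2 CPM of each gene minus its mean over the 7 libraries, by library, in red where above and in blue where below that mean. In db/+ mouse 2 Trib3 and Chac1 reached 1.34 and 1.55, while Ppp1r15a reached -1.17.

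Per kilobase of the longest coding transcript in GENCODE, Atf4 was the most abundant member in all 3 groups, with a mean of 142 CPM per kb in db/+, 83.2 in db/db and 52.3 in KO_db/db. Atf5 followed in db/+ with 78.7 CPM per kb, then Asns with 47.9, Ddit3 with 18.5, Chac1, Sesn2 with 12.3, Ppp1r15a with 8.04, Eif4ebp1 with 6.67, Vldlr with 4.36 and Trib3 with 2.31. In db/db Asns had 32.6 CPM per kb and Atf5 23.1, the reverse of their order in db/+. Ppp1r15a, at 8.04 in db/+, stood next after Asns in db/db with 28.9 CPM per kb. On the same scale in KO_db/db, Atf5 had 40.6, Asns 35.3 and Ppp1r15a 21.8.

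The likeness of a profile to that of Atf4 was taken as the mean absolute difference of log2 CPM, each gene centred on its own mean over the 7 libraries, for 7653 genes with at least 10 CPM. The nearest genes were Yes1 (0.0736), a Src-family kinase, Agps (0.0813), an enzyme of ether lipid synthesis, Cnep1r1 (0.105), Ublcp1 (0.121) and Rbm5 (0.129). Among the other members the difference from Atf4 was smallest for Ddit3 (0.361), Asns (0.461) and Atf5 (0.465), and largest for Ppp1r15a (1.37).

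Genes that act with the members were read from lists around the pathway. Of all genes, 19.9% rose and 18% fell in db/db against db/+, and 20.5% rose and 17.9% fell in KO_db/db against db/+. Of 16 genes of the eIF2 kinases, eIF2, its exchange factor eIF2B and the phosphatase side, 2 rose and 5 fell in db/db against db/+ (median log2 fold change 0.12). Against db/+, 1 rose and 4 fell in KO_db/db (median -0.15, or -0.105 without KO_db/db mouse 1). Among the kinases, Eif2ak2 (PKR, the sensor of double-stranded RNA) had at most 10.4 CPM in db/+ and 24.0 and 18.2 CPM in db/db. It rose by 1.02 in db/db (SE 0.16, adjusted p = 0.00388 by edgeR). In KO_db/db it had 11.1 and 18.2 CPM, and its log2 fold change of 0.53 against db/+ was not called (SE 0.21, adjusted p = 0.0853 by edgeR). Eif2ak1 (HRI, the haem sensor) rose by 0.47 in db/db and by 0.61 in KO_db/db (SE 0.11 and 0.10, adjusted p = 0.0158 and 0.00531 by edgeR). The other 2 kinases, Eif2ak3 (PERK, the sensor of the endoplasmic reticulum) and Eif2ak4 (GCN2, the amino acid sensor), had log2 fold changes of 0.42 and 0.37 in db/db and 0.11 and 0.34 in KO_db/db, and neither was called. Eif2s1, the subunit that is phosphorylated, fell by 0.66 in db/db and by 0.72 in KO_db/db. Oma1, the mitochondrial protease that relays stress to HRI, fell by 1.24 and by 0.73.

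Among 10 tested genes for bZIP factors that pair with ATF4 or bind related sites, 4 rose and 1 fell in db/db against db/+ (median 0.63). In KO_db/db against db/+ 5 rose and 1 fell (median 0.70, or 0.17 without KO_db/db mouse 1). Of all genes, 19.9% rose and 18% fell in db/db, and 20.5% and 17.9% in KO_db/db. Cebpb rose by 1.03 in db/db and by 1.54 in KO_db/db (SE 0.22 and 0.18, adjusted p = 0.0111 and 0.00167 by edgeR). Cebpg, which forms the heterodimer with ATF4 at amino acid response genes, had 52.0 to 78.9 CPM in db/+, 51.7 and 24.6 CPM in db/db, and 16.7 and 23.2 CPM in KO_db/db. It fell by 1.70 in KO_db/db against db/+ (SE 0.22, adjusted p = 0.00224 by edgeR), and its log2 fold change in db/db was -0.81 (SE 0.32, adjusted p = 0.0884 by edgeR). Maff rose by 0.70 in db/db and by 0.75 in KO_db/db, and Jun, also an immediate early gene, rose in both.

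Genes of amino acid supply, which ATF4 is known to induce, were read from 3 lists, beside 18% of all genes lower and 19.9% higher in db/db, and 17.9% and 20.5% in KO_db/db. The 12 cytosolic aminoacyl-tRNA synthetases, which load amino acids on tRNA, summed to 998 to 1083 CPM in db/+, 637 and 653 CPM in db/db, and 849 and 782 CPM in KO_db/db. In db/db against db/+ 9 of 12 fell and none rose, with a median log2 fold change of -0.67 against 0.01 over all genes. Mars1 fell by 2.00, Cars by 1.04, Iars by 1.03 and Nars by 0.95. Of the 12, 6 fell and Eprs rose in KO_db/db against db/+ (median -0.50, or -0.57 without KO_db/db mouse 1). Between KO_db/db and db/db none of the 12 was called by edgeR and 5 had an unadjusted p under 0.05, as had 2814 of 13486 genes. A positive fold change was found in 9 of 12, beside 47.9% of all genes, and the median was 0.36, beside -0.02. The fit of all 7 libraries called 3 higher, where it called 3.66% of all genes higher. Serine, one-carbon, proline and transsulfuration enzymes gave 4 lower and none higher of 13 in db/db (median -0.23), among them Mthfd2 at -1.58 and Shmt2 at -1.10. In KO_db/db 3 were lower and 1 higher (median -0.28, or -0.16 without KO_db/db mouse 1), with Mthfd2 at -1.44 and Gpt2 at -1.11. Of the amino acid transporters, 2 fell and 1 rose of 9 in db/db (median -0.12). In KO_db/db 3 fell and 1 rose of 8 (median -0.08, or -0.18 without KO_db/db mouse 1). Slc3a2, the shared heavy chain of several transporters, had 210 to 232 CPM in db/+, 83.0 and 103 CPM in db/db, and 168 and 153 CPM in KO_db/db. It fell by 1.27 in db/db (SE 0.14, adjusted p = 0.00124 by edgeR) and by 0.44 in KO_db/db (SE 0.10, adjusted p = 0.0164 by edgeR).

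**Figure D5:**
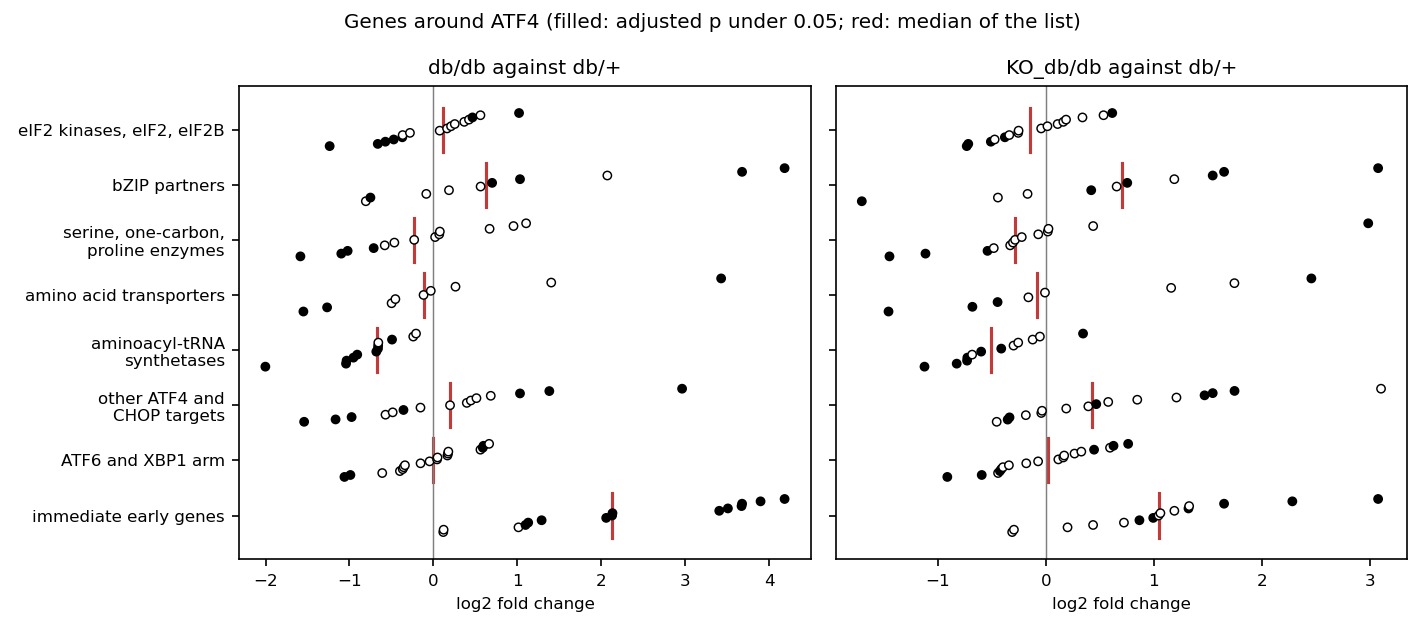
Log2 fold changes of the genes of 8 lists around ATF4 against db/+, for db/db and for KO_db/db, filled where the adjusted p was under 0.05 by edgeR and with a red line at the median of each list. The aminoacyl-tRNA synthetases lay at or left of 0 in db/db (median -0.67), and the immediate early genes lay right of it (median 2.13).

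Other targets of ATF4 and CHOP went in both directions, as did all genes. Of 15 tested, 3 rose and 4 fell in db/db against db/+ (median 0.20), where 19.9% of all genes rose and 18% fell. Of 16 tested, 4 rose and 2 fell in KO_db/db against db/+, where 20.5% and 17.9% of all genes did. The median was 0.43, or 0.24 without KO_db/db mouse 1. Txnip, a glucose-responsive inhibitor of thioredoxin, had 144 to 233 CPM in db/+, 1819 and 1284 CPM in db/db, and 389 and 120 CPM in KO_db/db, and rose by 2.96 in db/db against db/+ (SE 0.24, adjusted p = 0.000681 by edgeR). Ndrg1 fell by 1.54 in db/db and by 0.35 in KO_db/db. Nupr1, a stress gene that acinar cells also express, had 24.7 to 26.3 CPM in db/+, 14.0 and 9.30 CPM in db/db, and 127 and 43.5 CPM in KO_db/db. It fell by 1.17 in db/db and rose by 1.75 in KO_db/db, whose libraries had 17.6% and 1.99% acinar counts, and the part of these in its level was not tested.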

How the data were processed

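Poly-A RNA of sorted β-cells from 7 mice was sequenced by the authors as paired-end reads on a NovaSeq, and the submitters' processing notes name bcl2fastq 2.19, kallisto 0.44.0 and GRCm38. The authors deposited estimated counts per gene symbol, as whole numbers that are not scaled between libraries. The annotation release and the strand setting are not given in the sources used here, and neither is the sort gate for these libraries. One column per library was used and 0 columns were left out.

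Counts were read in R 4.3.3. For each pair of groups, edgeR 4.0.16 was run on the libraries of that pair alone, with filterByExpr (minimum count 10), TMM scaling and the quasi-likelihood test over the whole table. P-values were adjusted by the Benjamini-Hochberg method over all genes tested, with a threshold of 0.05. The study's methods name DESeq2, which was kept as an alternative (version 1.42.0, with limma 3.58.1 loaded by edgeR). The standard error of a log2 fold change was computed from the fitted coefficient and its F statistic, and a prior count of 2 entered the log2 CPM. The fit was tested on simulated data before use.

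The members and the lists of related genes were chosen with earlier results of these data known, so no p is given for a list. All 10 members are reported. From each list, at most 4 genes are named, those called against db/+ with the largest absolute log2 fold change and a mean of at least 5 CPM, plus the kinases of eIF2. Eprs, Junb, Zfp36, Atf3 and Eif4ebp2 were named in addition, after their values were seen. Promoter windows come from RefSeq (GRCm38.p6). Gene coordinates and transcript lengths come from GENCODE on the same build.

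Replicates are separate mice, all pairs of replicates differed by more than sampling noise, and each library was counted once. Alternatives were other library scaling, DESeq2, no filter, 1 fit of all libraries, a block for mouse number, acinar and Reg genes left out, and each library left out in turn.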

Additional observations from a re-analysis of the deposited data

How the results depend on the processing

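Library scaling by DESeq2 size factors and leaving out the acinar and Reg genes changed no direction and no call of any member in the 3 comparisons. Of the fits of single members under alternatives, 103 kept direction and side of the threshold for db/db against db/+, 99 for KO_db/db against db/+ and 90 for the 2 obese groups, while 4, 5 and 5 changed side and 3, 6 and 5 turned sign. The cause of these changes was not tested. KO_db/db against db/db depended most on the fit. Against 17 genes higher and 26 lower over the whole table, DESeq2 called 746 and 628, the fit with no filter 804 and 766, and the fit of all 7 libraries 504 and 314, and these called 2, 2 and 1 members higher where edgeR on the pair alone called 0. Without 1 library the genes called higher ranged from 0 without db/db mouse 1 to 170 without KO_db/db mouse 2, those called lower from 0 without db/db mouse 1 to 136 without db/db mouse 2, and the members' median log2 fold change from -0.20 without KO_db/db mouse 2 to 0.30 without KO_db/db mouse 1. In db/db against db/+ the genes called lower fell from 2407 to between 1466 (without db/+ mouse 1) and 2116 (without db/db mouse 1), and the members' median ranged from -0.82 (without db/+ mouse 3) to -0.34 (without db/+ mouse 2). In KO_db/db against db/+ the genes called higher ranged from 1766 (without KO_db/db mouse 1) to 2600 (without db/+ mouse 3) and those called lower from 1294 to 2125 without the same libraries, the members called higher from 1 to 2, and the members' median from -0.73 (without KO_db/db mouse 2) to -0.17 (without db/+ mouse 2). With 1 library left out in KO_db/db against db/db, Ddit3 ranged from -0.85 to 0.70, Trib3 from -0.54 to 1.56, Chac1 from -1.22 to 0.60 and Sesn2 from -0.0266 to 0.39 on the log2 scale. Under the same leave-outs Trib3 ranged from -1.17 to 1.27 and Eif4ebp1 from -0.23 to 0.20 in KO_db/db against db/+. For db/db against db/+ these ranges were -0.96 to 0.37 for Trib3 and -1.67 to 0.36 for Chac1. Where a leave-out left a group with 1 library, that library was assumed to vary like the other group.

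The mouse numbers were not treated as pairs. Deviations of same-numbered libraries from their group means correlated at -0.06 between KO_db/db and db/db, at -0.08 and -0.10 between KO_db/db and db/+, and at 0.06 and 0.08 between db/db and db/+. In a group of 2 libraries the deviations mirror each other, so differently numbered libraries of KO_db/db and db/db were bound to give 0.06. These correlations therefore cannot show whether the mouse numbers mark pairs. With the mouse number as a replicate block, 9 genes were higher and 13 lower between the obese groups, where the sign of Ddit3 turned (-0.0591). Under the block Asns lost its call in KO_db/db against db/+ and the sign of Trib3 turned there (-0.0744). Every member lay above the detection floor in every library, and whether more depth would change a call was not tested.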

Other observations

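Genes of another arm of the unfolded protein response were called in shares below or near those of all genes. Of 18 genes of the ATF6 and XBP1 arm, which raise the folding and degradation capacity of the endoplasmic reticulum, 2 rose and 2 fell in db/db against db/+ (median log2 fold change -0.00), where 19.9% of all genes rose and 18% fell. In KO_db/db 3 rose and 4 fell, where 20.5% and 17.9% of all genes did (median 0.02, or -0.12 without KO_db/db mouse 1). Hsp90b1, the chaperone GRP94, had 706, 602 and 815 CPM in db/+, 1225 and 959 CPM in db/db, and 1056 and 1121 CPM in KO_db/db, and rose by 0.60 and by 0.63 on the log2 scale (adjusted p = 0.0388 and 0.0308 by edgeR). Sel1l, an adaptor of the degradation complex, rose by 0.59 and by 0.76 (adjusted p = 0.00573 and 0.00334 by edgeR). Dnajb9, a cochaperone that XBP1 induces, had 507, 297 and 455 CPM in db/+, 241 and 190 CPM in db/db, and 212 and 232 CPM in KO_db/db. It fell by 0.99 in db/db and by 0.91 in KO_db/db (adjusted p = 0.0203 and 0.0225 by edgeR). None of the 18 was called between KO_db/db and db/db by edgeR, and 3 had an unadjusted p under 0.05, as had 2814 of 13486 genes.

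A list of relatives of the members had 8 tested genes, among them Atf3 and Eif4ebp2 beside relatives of Trib3, Sesn2, Chac1 and Ppp1r15a. Against db/+, 3 rose and 1 fell in db/db, where 19.9% of all genes rose and 18% fell. In KO_db/db 3 rose and 2 fell, where 20.5% and 17.9% of all genes did (median 0.25, or -0.11 without KO_db/db mouse 1). Atf3 was among the rises in both, and Eif4ebp2 among those in KO_db/db. Atf3 had 0.0410, 0.109 and 0.309 CPM in db/+, 4.41 and 1.59 CPM in db/db, and 0.977 and 1.70 CPM in KO_db/db. Its level lay under the detection floor in db/+ mouse 1 (0.123 CPM) and at the floor in db/+ mouse 2 (0.109 CPM). Trib1, a relative of Trib3, had 28.8, 22.5 and 23.9 CPM in db/+, 54.1 and 76.0 CPM in db/db, and 74.2 and 26.9 CPM in KO_db/db. It rose by 1.35 in db/db (adjusted p = 0.00239 by edgeR), and its log2 fold change of 1.02 in KO_db/db missed the threshold (adjusted p = 0.0749 by edgeR). On the mTORC1 side of Sesn2 and Eif4ebp1, 2 of 13 genes rose and 1 fell in db/db, beside the same shares of all genes. In KO_db/db 5 rose and 2 fell (median 0.32, or 0.35 without KO_db/db mouse 1). Deptor, an inhibitor of mTORC1, rose by 0.85 in db/db and by 0.43 in KO_db/db (adjusted p = 0.00486 and 0.0164 by edgeR), while Mtor had a log2 fold change of 0.20 in db/db and rose by 0.69 in KO_db/db (adjusted p = 0.267 and 0.00394 by edgeR). Between KO_db/db and db/db, edgeR called none of the relatives of Trib3 and other members (1 of 8 had an unadjusted p under 0.05) and none on the mTORC1 side (2 of 13). Of all genes, 2814 of 13486 had such a p.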
